A study of Mus musculus with 48 samples.

Results

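In a genome-wide map of capped RNA 5′ ends from mouse primary CD4+ T cells, 617 tag clusters with no gene name lost at least 50% of their level under strong T cell receptor stimulation. A tag cluster is a short stretch of start sites on 1 strand. Each of the 617 lies more than 1000 bp, on either strand, from any cluster with a single gene symbol. Each has a ratio of (mean at 10000 ng/ml + 1) to (mean at 0 ng/ml + 1), in RPM (tags scaled to a common library total), of at most 0.5 in cells without PD-1 engagement. They were chosen from 17272 clusters in the CD4 table, of which 3643 carry no symbol and 2758 are distal in the sense above. The unengaged 10000 and 0 ng/ml levels therefore chose the clusters and are given here as a description, with no test. The ratio of the clusters just inside the threshold was 0.499851 (chr18:60533246-60533271, plus strand, nearest named gene Iigp1) and 0.499631 (chr16:49970079-49970226, minus strand, nearest Cd47). Just outside were a cluster nearest to Cyp4f16 at 0.500119 and another nearest to 1700025G04Rik at 0.500704. All 617 passed the filter for testing, at least 1 RPM in at least 2 libraries. Calling them silenced overstates the fall: 4 of the 617 were at 0 in all 3 unengaged libraries at 10000 ng/ml.

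The cells were primary CD4+ T cells of the strain BALB/cCrSlc, given 2C11, an antibody to CD3, at 0, 10, 100, 1000 or 10000 ng/ml, with or without engagement of PD-1. These 10 groups held 22 libraries, 2 per group and 3 in each 10000 ng/ml group. For comparison, 26 libraries came from DO11.10, a T hybridoma of BALB/c x AKR/J origin and thus a single cell line, given the peptide pOVA at 0 to 10000 nM with or without PD-1 engagement. How PD-1 was engaged, for how long cells were stimulated, the age of the mice and whether replicates were separate animals or cultures are not in the labels, so p-values measure only the spread between these samples. RNA came from bulk cells, so fewer cells of a type and less RNA per cell cannot be told apart.

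Cap analysis of gene expression (CAGE) counts the capped 5′ ends of RNA, which are read as places where transcription starts. Active enhancers give short capped RNAs, often from both strands, and capped ends away from known genes can also mark alternative promoters or long non-coding RNAs. Resting CD4+ T cells keep a quiescence and homing programme (Klf2, S1pr1, Ccr7, Tcf7 and Lef1 among others) that is turned down after receptor stimulation, and PD-1 is an inhibitory receptor that dampens that stimulation. What kind of element each of the 617 clusters marks, and whether each is a separate start of transcription, is not recorded in the table. The word start, used for a cluster here, means only a position of capped 5′ ends. Their own base sequence is not printed, because the coordinates are on build mm9 and no mm9 sequence was used here. Coordinates are given as deposited.

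Library totals ranged from 4.42 to 22.8 M tags (median 10.2). T cell identity genes were all measured (15 of 15), with a summed level of 4230 to 6360 RPM. Of 15 B cell and antigen-presenting cell genes, 12 were in the table, with sums of 547 to 1230 RPM, and Blk, Ebf1 and Cr2 were not listed. Of 13 myeloid genes 2 were listed (Cst3 and Ctss), of 8 cytotoxic and NK genes 3, and of 6 erythroid genes 0. The first principal component held 65.1% of the variance over clusters.

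Summed over the 617 clusters, the level at 10 ng/ml was close to that at 0, lower at 100 ng/ml and lowest at 1000 and 10000 ng/ml. In the unengaged libraries the summed level was 8449 and 8914 RPM at 0, 8080 and 8098 at 10, 5803 and 5609 at 100, 2776 and 2548 at 1000, and 2282, 2275 and 2288 RPM at 10000 ng/ml. In the engaged libraries the sum was 7682 and 7784 RPM at 0, 7719 and 8262 at 10, 5575 and 5775 at 100, 3069 and 2759 at 1000, and 2735, 2280 and 2438 RPM at 10000 ng/ml. With and without engagement, every library at 1000 or 10000 ng/ml was below every library at 100, and every library at 100 was below those at 10 and 0. Over the same libraries the other 2141 distal unnamed clusters summed to 40160 to 66920 RPM, highest in engaged replicate 1 at 100 ng/ml. The median member held 5.38 RPM at 0 and 0.985 RPM at 10000 ng/ml without engagement, and 5.01 and 1.11 RPM with engagement. In reads, the median member had 37.5 tags in the engaged libraries at 0 and 10 tags at 10000 ng/ml, so counting error is large at the bottom of the curve.

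**Figure D1:**
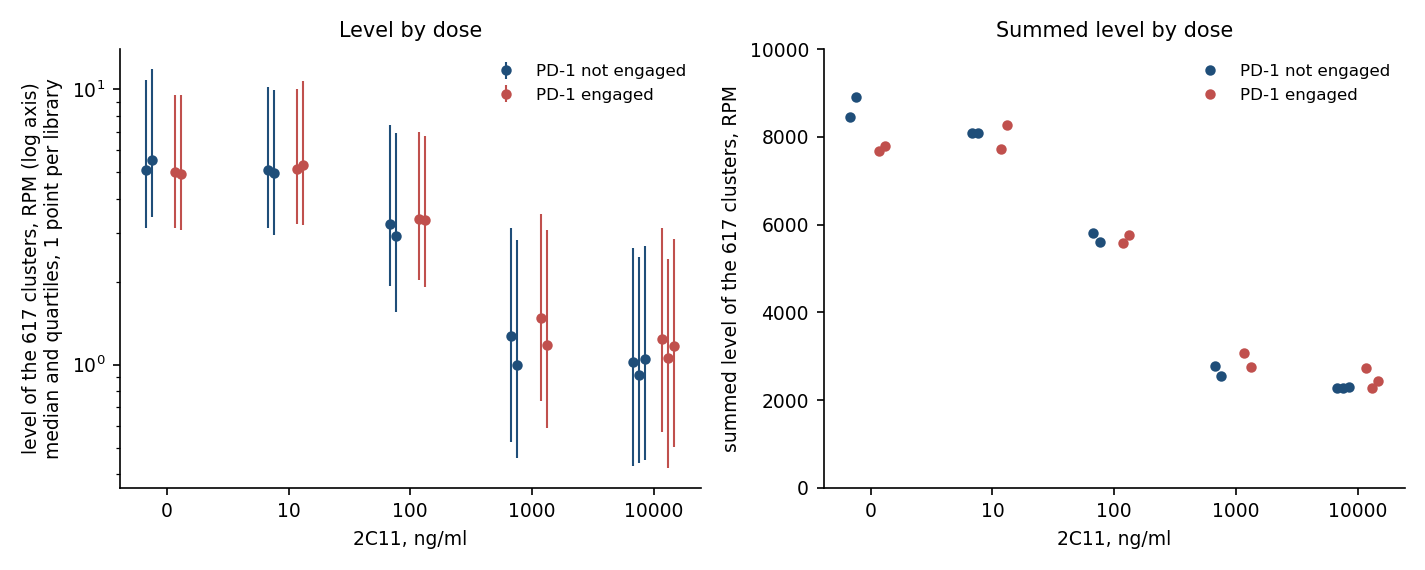
Left, median (point) and quartiles (bar) of the level of the 617 clusters in each library, in RPM on a log axis, against the 2C11 dose in ng/ml; right, their summed level in RPM. Blue is PD-1 not engaged and red PD-1 engaged; sums stay between 7682 and 8914 RPM at 0 and 10 ng/ml and between 2275 and 3069 RPM at 1000 and 10000 ng/ml.

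The engaged libraries took no part in the choice of the clusters, and they gave the first test. Between 0 and 10000 ng/ml with PD-1 engaged, 589 of the 617 clusters fell, none rose, and 28 did not pass (limma, adjusted p under 0.05 over 17269 clusters). Of all clusters tested, 28.0% were called lower and 32.1% higher. The median difference on the log2(RPM + 1) scale was -1.42 over the 617 and 0.03 over all clusters, and 399 of 2140 other distal unnamed clusters were called lower and 512 higher. In 597 of the 617 the 3 libraries at 10000 ng/ml lay below both at 0, which held for 33.5% of all clusters. B cell and antigen-presenting cell genes summed to 638 to 988 RPM at 0 and 862 to 1230 RPM at 10000 ng/ml in these libraries, and T cell identity genes to 5080 to 5330 and 4230 to 5000 RPM. The part of either in the result was not tested.

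A second test used unengaged libraries at 10 and 1000 ng/ml, which the choice did not use either. Here 585 clusters fell, none rose and 32 did not pass, against 27.4% lower and 28.9% higher over all clusters, and the median difference was -1.39. In 610 of the 617 both libraries at 1000 lay below both at 10 ng/ml, which held for 39.3% of all clusters. In both tests 568 clusters were called lower, and in neither test 11.

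The lowest dose with calls was 100 ng/ml. Against engaged 0 ng/ml, no cluster of the 617 was called at 10 ng/ml by limma, edgeR or DESeq2 (0.0% of all clusters by limma), and 15, 7 and 3 had an unadjusted p under 0.05. At 100 ng/ml 132 were called lower and none higher, against 4.1% lower and 6.28% higher of all clusters, with a median of -0.45. At 1000 ng/ml 557 were called lower and none higher, against 25.8% and 25.0%, with a median of -1.25. In these dose comparisons, engaged 100, 1000 and 10000 against 0 and unengaged 1000 against 10 ng/ml, limma, edgeR and DESeq2 called 0 of the 617 higher, and 0 were higher at an unadjusted p under 0.05. All 132 called at 100 were called again at 1000 and at 10000 ng/ml. A further 425 were first called at 1000 ng/ml, 38 at 10000 ng/ml alone, and 22 at no dose. The count at 100 ng/ml depends on the tool, 90 by edgeR and 56 by DESeq2, against 3.67% and 2.72% lower of all clusters. From 10 to 100 ng/ml, 225 of the 617 fell and none rose without engagement, against 5.68% lower and 17.7% higher of all clusters (higher at an unadjusted p under 0.05: 0 by limma, 1 by edgeR and 1 by DESeq2), and 165 fell and 1 rose with engagement, against 6.25% lower and 7.59% higher. The 165 became 126 by edgeR, 77 by DESeq2 and 102 with 0.25 RPM added on the log scale. Of all clusters 5.35%, 3.94% and 5.08% were then called lower. The dose at which a cluster had gone through 50% of its fall from 0 to 10000 ng/ml, read from the engaged means on a log dose axis, had a median of 142 ng/ml (quartiles 75.4 and 237). From the unengaged means, which include the libraries used for the choice, the median was 81.9 ng/ml (quartiles 50 and 152).

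**Figure D2:**
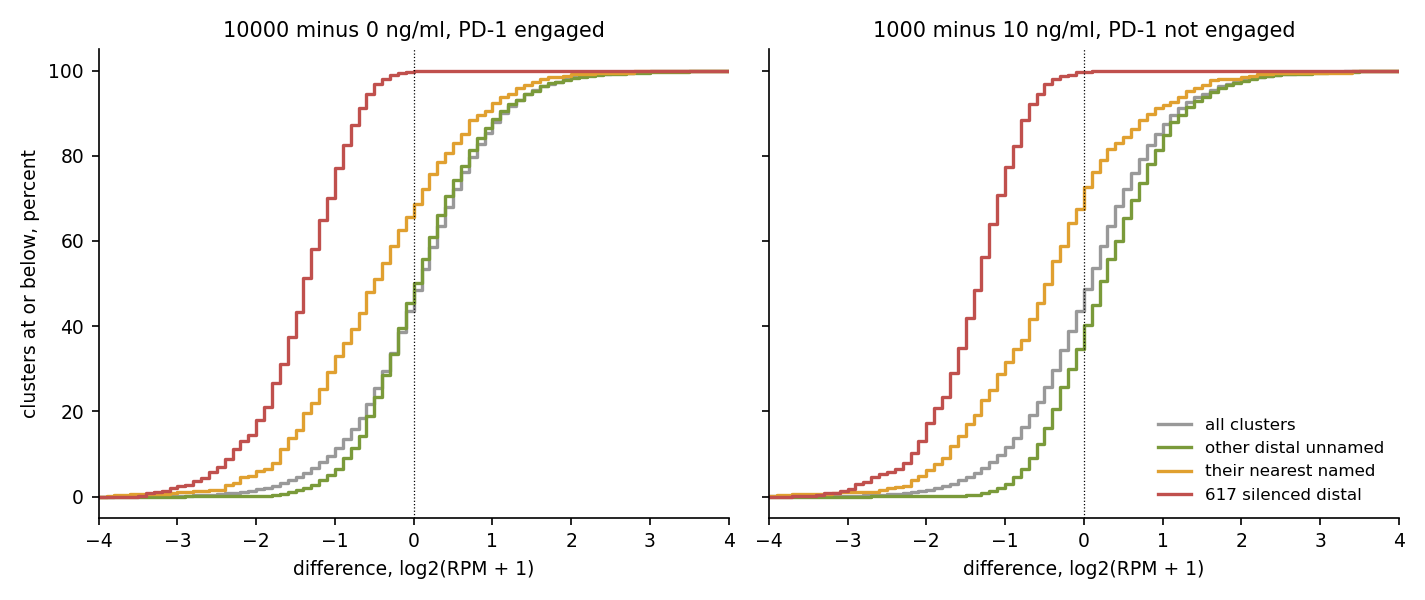
Cumulative percent of clusters (y axis) at or below a difference on the log2(RPM + 1) scale (x axis), for 10000 minus 0 ng/ml with PD-1 engaged (left) and 1000 minus 10 ng/ml without (right). The 617 clusters lie to the left of all clusters, with medians of -1.42 and -1.39, and their nearest named clusters lie between, with medians of -0.55 and -0.50.

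The 6 largest falls lay near Lfng, Zfp36l2, Aim2, Sgk1, Lef1 and Fam117a. A cluster nearest to Lfng, a glycosyltransferase that modifies Notch receptors (chr5:141072493-141072547, minus strand, 10746 bp upstream), held 83.9 and 89.7 RPM in the engaged libraries at 0, 37.5 and 40.01 at 100, and 7.53, 5.91 and 6.53 RPM at 10000 ng/ml. Its libraries at 10000 do not overlap those at 0, and the difference was -3.52 ± 0.194 (log2 scale, SE; limma adjusted p = 3.73e-11). Near Zfp36l2, which binds AU-rich elements of mRNA, the cluster at chr17:84712950-84713025 (minus strand) held 24.5 and 25.5 RPM at 0 and 1.43, 1.16 and 1.34 RPM at 10000 ng/ml, a difference of -3.49 ± 0.224 (limma adjusted p = 2.46e-10). It lies 125662 bp upstream of the named start. A cluster nearest to Lef1, a transcription factor of naive T cells (chr3:130859208-130859378, plus strand, 43498 bp downstream of the start), held 32.9 and 33.2 RPM at 0 and 2.76, 1.69 and 2.18 RPM at 10000 ng/ml, with a difference of -3.42 ± 0.177 (limma adjusted p = 1.63e-11). The clusters nearest to Aim2, a DNA sensor of the inflammasome, and to Fam117a had differences of -3.44 and -3.35. For these 5 clusters the engaged libraries at 100 ng/ml lay between those at 0 and those at 10000 ng/ml.

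**Figure D3:**
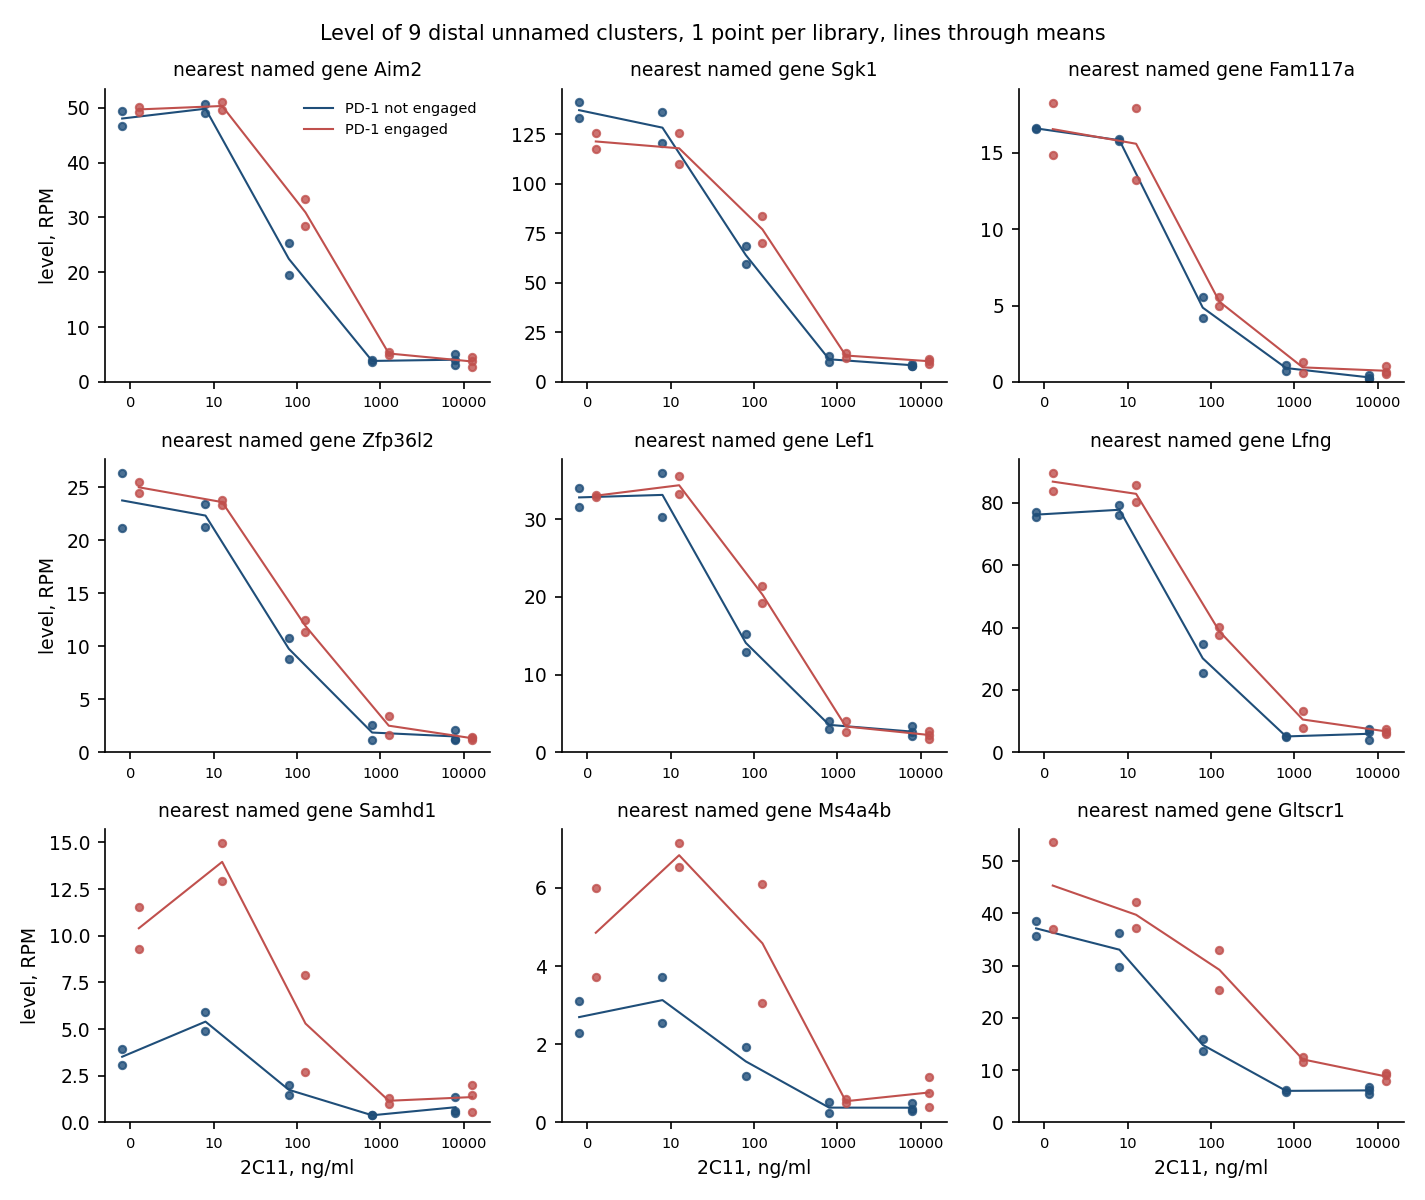
Level in RPM (y axis, from 0) of 9 of the clusters in every CD4 library (points) against the 2C11 dose in ng/ml, with lines through group means, blue for PD-1 not engaged and red for engaged; each panel is titled by the nearest named gene. The first 6 have the largest falls, for example from 83.9 and 89.7 RPM to 7.53 RPM and below near Lfng, and the last 3 the largest engagement differences among those called higher.

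The densest locus, chr10:22019259-22026589, held 10 of the clusters on both strands, 304769 to 312028 bp downstream of Sgk1, the nearest named start. Sgk1 encodes a serum- and glucocorticoid-regulated kinase. The leading start, chr10:22022307-22022344 (minus strand), held 117 and 125 RPM in the engaged libraries at 0, 110.0 and 126 at 10, 70.1 and 83.8 at 100, 14.7 and 11.9 at 1000, and 11.6, 8.97 and 10.7 RPM at 10000 ng/ml. Each dose from 100 ng/ml on lay below the one before, and the 10000 minus 0 difference was -3.43 ± 0.133 (limma adjusted p = 5.11e-13). All 10 clusters fell. A neighbour on the other strand at the far end, chr10:22026518-22026589 (plus strand), fell least, from 49.0 and 43.8 RPM to 28.5, 22.9 and 24.1 RPM (difference -0.86 ± 0.1002, limma adjusted p = 5.99e-07). The start at chr10:22019259-22019277 went from 3.83 and 4.76 RPM to 0 in all 3 libraries at 10000 ng/ml, where 3 tags over the group's 25.9 M tags would be 0.116 RPM, counting error only. Sgk1 itself, summed over its clusters, went from 9.27 ± 0.152 RPM (SD, n = 2) to 3.91 ± 1.38 RPM (n = 3).

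A group of 6 clusters, 1 of 4 such loci, lay upstream of Ccr7, the receptor that guides naive T cells to lymph nodes, at chr11:99024397-99032585. Its main start, chr11:99029628-99029721 (plus strand, opposite to Ccr7, 13236 bp upstream), held 56.7 and 65.8 RPM at 0 and 12.6, 11.8 and 12.9 RPM at 10000 ng/ml with engagement. That is a difference of -2.21 ± 0.137 (limma adjusted p = 1.56e-10), with no overlap. The other 5 were below 10 RPM and fell too, by differences of -1.01 to -1.84. Ccr7 itself went from 330.2 ± 19.9 to 68.2 ± 7.62 RPM. In all, the 617 clusters formed 464 loci when clusters within 10 kb were joined: 379 held 1 cluster and 85 held the other 238.

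The most abundant clusters fell too. The highest, the single base chr6:48636833 (plus strand, 2179 bp downstream of Gimap4), held 589.7 and 593 RPM at 0 and 273, 223 and 239 RPM at 10000 ng/ml with engagement, a difference of -1.28 ± 0.0815 (limma adjusted p = 2.3e-10). Gimap4 belongs to a family of GTPases of lymphocyte survival. A cluster 3946 bp upstream of Gimap3, of the same family (chr6:48720805-48720878, minus strand), went from 235 and 251 RPM to 134, 107 and 118 RPM. The pair at chr19:11559017-11559145 (minus strand) and chr19:11560387-11560497 (plus strand), nearest to Gm8369, went from 122 and 133 RPM to 31.2, 23.5 and 31.5 RPM, and from 247 and 240.4 RPM to 79.0, 61.5 and 80.4 RPM. For these 4 clusters no library at 10000 ng/ml overlapped those at 0. Of the 617, 11 held at least 100 RPM in the engaged libraries at 0 and 2 at 10000 ng/ml.

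Up to 100 kb, named starts next to the clusters were called lower in a larger share than those next to other distal clusters, by most at 1 to 5 kb. Beyond 100 kb the shares were close, and both were below that of all clusters. The 617 clusters have 427 distinct nearest named clusters of 416 genes, of which 235 were called lower, 83 higher and 109 not called between engaged 0 and 10000 ng/ml (28.0% lower and 32.1% higher over all clusters). Their median difference was -0.55. Where the gap was 1 to 5 kb, 98 of 125 were called lower (78.4%), against 32.2% of those nearest to other distal clusters. The share was 58.8% against 33.6% at 5 to 20 kb, 49.1% against 30.9% at 20 to 100 kb, and 25.4% against 23.6% beyond 100 kb. The difference between shares was not tested, a named start can count in more than 1 distance class, and the neighbours were measured in the same libraries. The medians in those 4 classes were -1.06, -0.67, -0.33 and 0.11.

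**Figure D4:**
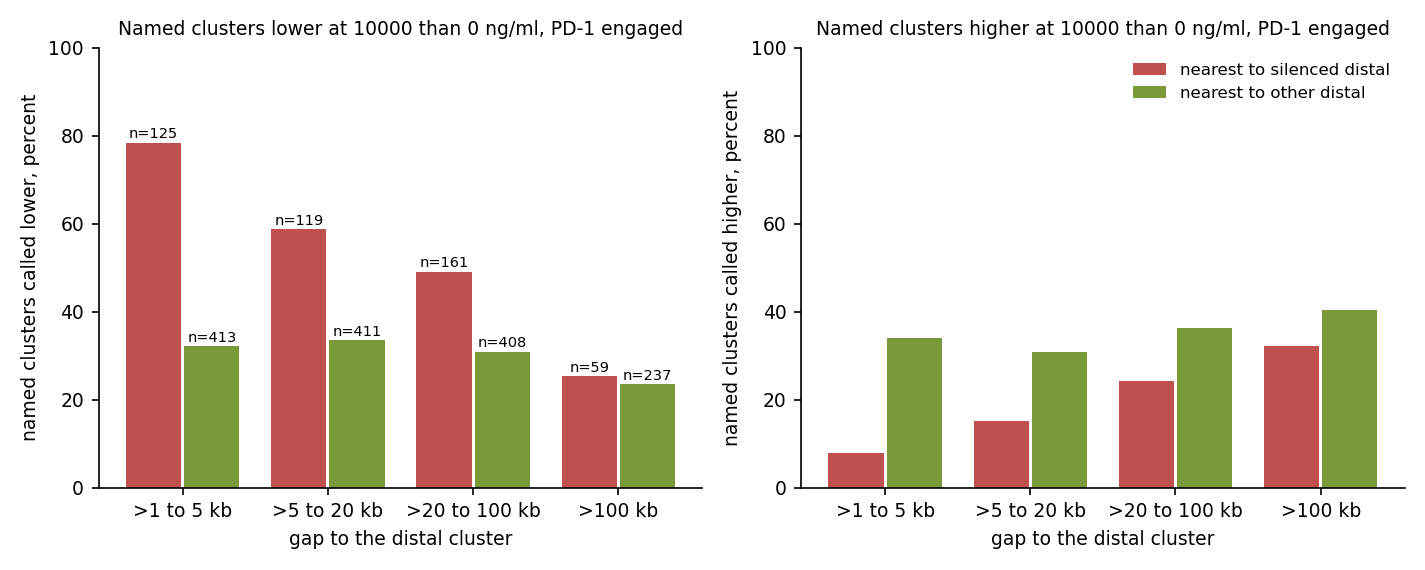
Percent of named clusters called lower (left) and higher (right) between 0 and 10000 ng/ml with PD-1 engaged (y axis), by their gap to the distal cluster they are nearest to (x axis), red for the 617 clusters and green for other distal clusters; n is the number of named clusters. The red bars for lower calls go from 78.4% at 1 to 5 kb to 25.4% beyond 100 kb, and the green bars stay between 23.6% and 33.6%.

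Genes of the resting T cell programme were among these neighbours. Of 48 genes listed for that programme 44 were measured. Between engaged 0 and 10000 ng/ml 37 were called lower, 5 higher and 2 neither, against 26.4% lower and 38.4% higher of 10217 genes. The median of the 44 was -1.16. The list was chosen with earlier results of these data known, so these counts describe the list and are not a test of it. For 55 of the 617 clusters the nearest named gene was in this list, spread over 20 genes. The matching count for other distal clusters was not made, so whether this share is unusual is not known. Over all nearest genes, Zfp36l2, which is not in the list, was nearest to the most clusters (12). Its level went from 311.7 ± 26.3 to 151.9 ± 7.99 RPM. Trib1, also outside the list and nearest to 4, rose by 1.62. The clusters of S1pr1, Klf2 and Btg2 given next were picked after their values were seen. S1pr1, the receptor for egress from lymph nodes and nearest to 5 of the clusters, went from 229.6 ± 3.06 to 14.4 ± 2.97 RPM. Its cluster at chr3:115387168-115387172 (plus strand) went from 3.94 and 3.07 RPM to 0, 0 and 0.167 RPM. Klf2, a factor that drives S1pr1, went from 168 to 18.2 RPM, and its cluster at chr8:74873980-74873995 (plus strand, 31019 bp downstream) from 3.59 and 6.92 RPM to 0.381, 0.528 and 0.67 RPM. Btg2, an anti-proliferative gene, had 5 clusters 15171 to 18173 bp downstream of its start, and all 5 fell.

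Among the clusters closest to genes of this list were clusters beside Dgka, a kinase that lowers diacylglycerol signalling. A cluster lies 1057 bp upstream of a Dgka start, and a separate cluster lies 1059 bp downstream of a different Dgka start. Both of these clusters fell (differences -1.59 and -1.86). The cluster 1361 bp from Pik3ip1, an inhibitor of PI3 kinase, went from 6.96 and 7.07 RPM to 1.91, 0.95 and 2.01 RPM, while the named start beside it fell by 3.99 on the log2 scale.

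Other clusters lay next to genes that rose or were not called, and 5 such genes, picked after their values were seen, are given here. The cluster nearest to Ifng, the effector cytokine (chr10:117993584-117993612, minus strand, 115482 bp downstream), went from 10.2 and 13.1 RPM at 0 to 0.667, 0.211 and 0.502 RPM at 10000 ng/ml with engagement. In the same libraries the Ifng start went from 0.464 and 0 RPM to 19.7, 20.5 and 13.1 RPM. Only 1917 bp upstream of Nr4a3, an immediate early nuclear receptor whose start there rose by 2.76 on the log2 scale, the cluster at chr4:48056066-48056103 (minus strand) went from 4.99 and 5.38 RPM to 2.00, 3.48 and 2.51 RPM. The cluster nearest to Cacybp fell by 2.72 while the Cacybp start rose by 1.48. A cluster 5227 bp from Cd79a, a B cell receptor subunit, went from 23.0 and 24.0 RPM to 2.38, 1.27 and 1.84 RPM, while the Cd79a start was at 49.3 ± 16.6 and 54.2 ± 4.57 RPM and was not called (limma adjusted p = 0.437). Tnfaip3, a brake on NF-kappaB, was the nearest gene of 4 clusters that fell, and the difference of its start was 0.05 (limma adjusted p = 0.684).

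The 617 lay on both sides of their nearest named start, and 258 were downstream on the same strand, 134 downstream on the opposite strand, 123 upstream on the same and 102 upstream on the opposite strand. The median gap was 20.5 kb (14.9 kb for other distal clusters) and the median width 46 bases (33). An unnamed cluster on the opposite strand within 1000 bp was present for 110 (17.8%, against 18.4%). Of these, 89 were divergent (14.4%, against 10.0%), with a median gap of 144 bp, and 21 convergent (3.4%, against 8.41%). The shares were not tested against each other. For 84 of the 110 a partner was itself among the 617, and of the 23 partners that were not, 13 were called lower, 1 higher and 9 neither between engaged 0 and 10000 ng/ml.

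PD-1 engagement was tested apart from dose. Averaged over 10, 100 and 1000 ng/ml, doses whose libraries did not choose the clusters, 43 were higher and 20 lower with engagement (limma), against 6.7% higher and 32.2% lower over all clusters. By limma on the RPM scale the share called higher, 6.97% of the 617, was near that of all clusters. The member counts moved with other scalings, given below. The median of the 617 was 0.08 and that of all clusters -0.14, and after quantile normalization the latter was -0.01. On that scale 76 members were higher and 6 lower, against 12.7% and 13.8% of all clusters. With edgeR's TMM scaling the counts were 121 and 6, against 14.2% and 14.7%, and with DESeq2 93 and 5, against 12.4% and 12.5%. Other distal unnamed clusters were called higher in 453 and lower in 201 of 2140 cases on the unadjusted RPM scale. Without unengaged replicate 2 at 100 ng/ml the member counts were 20 higher and 11 lower, and without engaged replicate 2 at 100 ng/ml 61 and 31. B cell and antigen-presenting cell genes summed to 547 to 861 RPM in the unengaged and 577 to 1220 RPM in the engaged libraries at these doses, highest at 100 ng/ml, and their part in the differences was not tested.

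By dose, no member was called at 10 ng/ml by limma, edgeR or DESeq2, with 28, 24 and 13 at an unadjusted p under 0.05 (0.151% of all clusters were called higher and 0.272% lower by limma). At 100 ng/ml 27 were higher and 20 lower, against 4.94% and 24.5%. On the quantile scale the counts were 39 and 4, against 7.05% and 8.05% of all clusters. At 1000 ng/ml 15 were higher and 1 lower, against 2.02% and 10.5%, and on the quantile scale 23 and 1, against 4.51% and 3.18%. The engagement differences at 0 and 10000 ng/ml share libraries with the choice and had medians of -0.14 and 0.08. Whether the step from 10 to 1000 ng/ml differed with engagement was tested directly: limma and edgeR called 0 of the 617 (32 and 75 at an unadjusted p under 0.05), and DESeq2 called 1 (45).

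**Figure D5:**
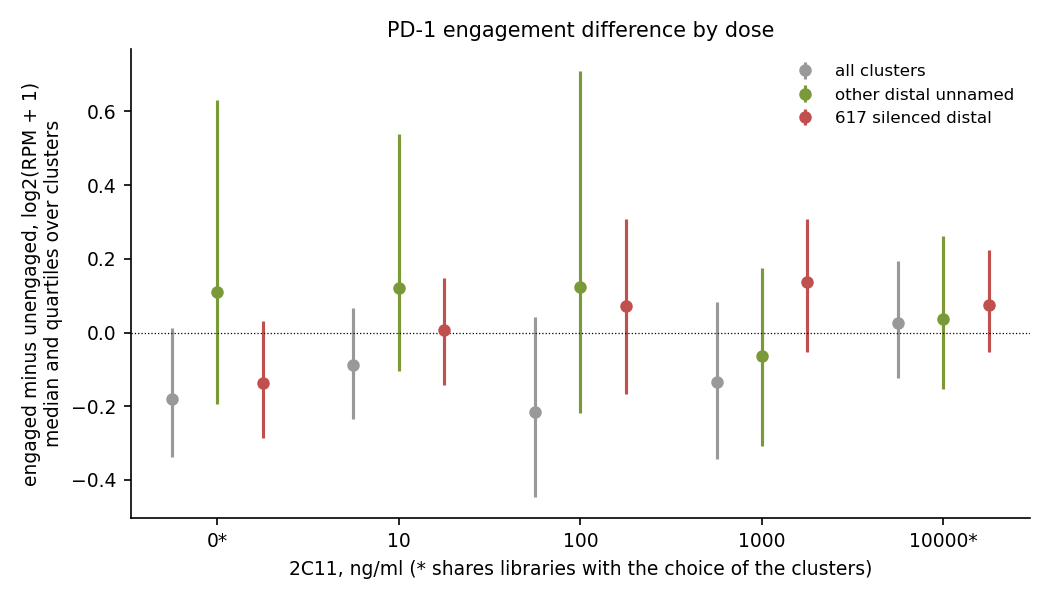
Median (points) and quartiles (bars) over clusters of engaged minus unengaged on the log2(RPM + 1) scale (y axis) by 2C11 dose in ng/ml (x axis), for all clusters (grey), other distal unnamed clusters (green) and the 617 clusters (red). Doses marked with an asterisk share libraries with the choice of the clusters; at 100 ng/ml the medians are -0.22, 0.12 and 0.07, and at 1000 ng/ml -0.13, -0.06 and 0.14.

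Among the clusters called higher with engagement, the 5 largest differences were nearest to Samhd1, Ms4a4b, Gltscr1, Cog6 and Ier5. That nearest to Gltscr1 (chr7:16633755-16633796, plus strand) held 29.8 and 36.3 RPM without and 37.3 and 42.2 RPM with engagement at 10 ng/ml, 16.0 and 13.6 against 25.3 and 33.0 at 100, and 5.76 and 6.28 against 11.6 and 12.5 RPM at 1000 ng/ml. At each dose both engaged libraries exceeded both unengaged ones, and the mean difference was 0.69 ± 0.0972 (limma adjusted p = 4.6e-05). Near Samhd1, which encodes a dNTP hydrolase, chr2:156926956-156927021 (minus strand) held 5.92 and 4.88 against 15.0 and 13.0 RPM at 10 ng/ml. At 100 ng/ml it held 2.02 and 1.46 against 7.91 and 2.67 RPM. The 7.91 RPM came from the CD4 library with the fewest tags (4.42 M). Averaged over 10, 100 and 1000 ng/ml, the difference was 0.98 ± 0.196 (limma adjusted p = 8.33e-04). The cluster 7863 bp from Ms4a4b, a membrane protein of T cells (chr19:11525937-11525938, plus strand), held 3.71 and 2.54 against 7.15 and 6.52 RPM at 10 ng/ml and 0.523 and 0.23 against 0.492 and 0.589 RPM at 1000 ng/ml. At 1000 ng/ml its groups overlapped. At 0 ng/ml, where the unengaged libraries took part in the choice, the cluster near Samhd1 held 3.93 and 3.10 against 9.28 and 11.5 RPM with engagement.

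Among those called lower, the 5 largest were nearest to Dctn1, 2210021J22Rik, Zmym2, Ppid and Sipa1, the last of which was not called by DESeq2 (adjusted p = 0.114). The single base chr6:83132514 (plus strand), nearest to the dynactin gene Dctn1, held 16.5 and 21.3 against 10.7 and 13.4 RPM at 10 ng/ml, 20.04 and 21.6 against 15.8 and 10.9 at 100, and 15.3 and 15.2 against 11.9 and 6.34 RPM at 1000 ng/ml. Engaged libraries were below unengaged ones at each of these doses (difference -0.66 ± 0.1496, limma adjusted p = 0.00216). That cluster is also 1 of the 28 with no call between engaged 0 and 10000 ng/ml, at 15.7 and 10.8 against 11.6, 11.2 and 12.9 RPM, which overlap. Near Ppid, which encodes a peptidyl-prolyl isomerase of the cyclophilin family, chr3:79091127-79091198 (minus strand) had a difference of -0.58 ± 0.105 (limma adjusted p = 3.45e-04).

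In the DO11.10 hybridoma 110 of the 617 clusters (17.8%) had an overlapping cluster on the same strand, all without a gene name, against 44.0% of other distal unnamed clusters. Between 0 and 10000 nM pOVA without engagement, 52 of the 110 were lower, 1 higher and 57 not called, against 16.2% lower and 13.8% higher over all hybridoma clusters, with a median of -0.53. Libraries at 0 nM differ in another respect. The 14 B cell and antigen-presenting cell genes in the hybridoma table summed to 1210 RPM in unengaged replicate 2 at 0 nM and 982 RPM in engaged replicate 2, against 97.5 and 282 RPM in replicate 1 of those groups and 88.9 to 288 RPM at all other doses. Without unengaged replicate 2 at 0 nM, which leaves 1 library assumed to vary like the other groups, 25 of the 110 were lower and 3 higher. The part of those genes in the count was not tested. The counterpart of the leading start downstream of Sgk1 held 0.56 and 5.96 RPM in the unengaged and 1.88 and 5.29 RPM in the engaged libraries at 0 nM, high in the same replicate 2, and 0.32 to 1.33 RPM at all other doses. The summed level of the 110 was 1236 and 1345 RPM at 0 nM and 912.5, 915.5 and 854.5 RPM at 10000 nM.

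The counterpart of chr7:97450909-97450956 (plus strand, nearest Crebzf, picked after its values were seen) held 33.2 and 29.8 RPM at 0 and 6.68, 5.25 and 5.01 RPM at 10000 nM, a difference of -2.30 ± 0.165 (limma adjusted p = 3.565e-09). Nearest to Rps19bp1, the counterpart of a member that also fell in CD4 cells (from 153 and 167 RPM to 41.4, 40.6 and 30.3 RPM with engagement) went from 53.5 and 34.7 RPM to 13.1, 19.1 and 12.7 RPM. Of the 5 most abundant counterparts, 3 fell, nearest to Adsl (-0.97, limma adjusted p = 7.04e-06), Nr3c1 (-0.89, limma adjusted p = 4.47e-04) and Ppid (-0.66, limma adjusted p = 0.0323), and 2 were not called. That nearest to Hace1 held 148 and 113 RPM at 0 and 151, 126 and 154 RPM at 10000 nM, and that nearest to Cdkn1b 64.0 and 46.4 against 49.4, 52.6 and 60.4 RPM, both with overlapping libraries. In CD4 cells with engagement the Hace1 member went from 192 and 187 RPM to 94.1, 74.4 and 91.8 RPM, and the Cdkn1b member from 122 and 111 RPM to 39.0, 32.7 and 41.5 RPM. The difference between the cell systems was not tested.

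Over 1 to 10000 nM, 2 of the 110 hybridoma counterparts were higher with engagement (limma), against 0.0999% of all hybridoma clusters, and 0 were lower, against 1.72%. Lower at an unadjusted p under 0.05 were 2 by limma, 0 by edgeR and 1 by DESeq2, and edgeR and DESeq2 called 0 lower. With the replicate number as a block 1 was lower. The Crebzf counterpart was 1 of the 2 (difference 0.32 ± 0.0779, limma adjusted p = 0.0343): at 10000 nM it held 6.68, 5.25 and 5.01 RPM without and 10.98, 10.3 and 7.95 RPM with engagement, with no overlap. The other was the counterpart of chr2:101832104-101832135 (plus strand, nearest Gm13919, difference 0.34 ± 0.0784, limma adjusted p = 0.0250). Leaving out single libraries changed the count higher in 17 of 26 cases and the count lower in 1.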

How the data were processed

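CAGE libraries of primary CD4+ T cells (22) and of the DO11.10 hybridoma (26) were analysed from the tables of tag clusters deposited by the authors, in RPM, tags scaled to each library's total. The authors' tools and build, per the submitters' processing notes, include HISAT2 2.0.5, BWA 0.7.12 and mm9; the sources used here do not state how clusters were called. All CD4 clusters reach at least 3.00 RPM in some library, so weaker starts can be missing. CD4 values were whole multiples of the worth of 1 tag, and 100% came out as whole tags within 0.1 tag, which gave the totals. In the hybridoma table at least 99.9% did in each library. The clusters held 81.8 to 87.1% of the tags in CD4 libraries and 91.0 to 92.3% in hybridoma libraries.

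Members follow the distance and ratio rule of the report. The members and the lists were chosen with earlier results of these data known. The nearest named cluster is the single-symbol cluster with the smallest gap on either strand. For each cell system, all clusters that reached 1 RPM in 2 or more libraries were fitted together on the log2(RPM + 1) scale, by group, in limma 3.58.1 with a mean-variance trend (under R 4.3.3). P-values were two-sided and adjusted by Benjamini-Hochberg. Fold changes on this scale understate those of low clusters. Errors of differences are standard errors. edgeR 4.0.16 and DESeq2 1.42.0 were run on the recovered tags. Clusters named in the text are those highest at engaged 0 ng/ml, with the largest falls, with the largest engagement differences, nearest the threshold, with abundant hybridoma counterparts, in the densest loci, or nearest to resting T cell genes; others are marked as picked afterwards or stand for their gene. On simulated data for the engaged 10000 minus 0 comparison, 20 of 189 limma calls over 17247 clusters were false (10.6%), and 12 of 181 by edgeR (6.63%). There limma called 47 of 50 clusters lowered 4-fold and 36 of 50 lowered 2-fold. The simulation gave every cluster the same dispersion and changed 200 clusters, in a single group. Far more clusters were called in the data, so these shares need not carry over. In the hybridoma, deviations of same-numbered engaged and unengaged libraries correlated at 0.208 to 0.656. Libraries of the same number thus varied together there, and the main fit, which held no replicate term, did not use this. In CD4 cells such deviations did not correlate at every dose. An item that the naming rule picks is not reported here.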

Additional observations from a re-analysis of the deposited data

Results flagged for a closer look

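For 4 of the 110 clusters with a hybridoma counterpart (3.64%), every hybridoma library at 10000 nM lay above both at 0 nM. For these 4, every engaged CD4 library at 10000 ng/ml lay below both at 0. Of all 18014 hybridoma clusters tested, 22.6% had every library at 10000 nM above both at 0 nM. Only 1 of the 4 passed the hybridoma test. The difference between the systems was not tested. The counterpart of chr3:68588288-68588311 (plus strand, nearest 1110032F04Rik) rose by 2.28 ± 0.258 on the log2(RPM + 1) scale (limma adjusted p = 1.79e-06), from 0.09 and 0 RPM to 2.89, 3.76 and 6.04 RPM, while the CD4 difference with engagement was -2.03. Its neighbour at chr3:68706710-68706746 had a hybridoma difference of 0.329 (limma adjusted p = 0.0684) and a CD4 difference of -0.67. The other 2 were chr5:151518975, nearest Pds5b, at 0.445 (limma adjusted p = 0.0511) against -0.64, and chr8:35279861-35279894, nearest Tmem66, at 0.278 (limma adjusted p = 0.132) against -0.58.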

How the results depend on the processing

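With 0.25 RPM in place of 1 RPM added to the ratio, 755 clusters met the rule; with 3 RPM added 297, with a ratio of at most 0.25 146, and leaving out single libraries 608 to 637. Leaving out single libraries gave 557 to 593 members lower between engaged 0 and 10000 ng/ml, 537 to 589 between unengaged 10 and 1000 ng/ml, 214 to 237 nearest named clusters lower and 71 to 87 higher, and 0 to 0 members called for the difference of the dose step. The engagement counts over 10 to 1000 ng/ml moved more: 20 to 61 higher and 11 to 31 lower without single libraries, 93 and 5 with DESeq2, 121 and 6 with edgeR, and 76 and 6 with quantile normalization. For the dose step DESeq2 called 1. Members lower between engaged 0 and 100 ng/ml numbered 132, 90 with edgeR, 56 with DESeq2 and 74 with 0.25 RPM added on the log scale. The shares of all clusters called lower were 4.1%, 3.67%, 2.72% and 3.29%. In the hybridoma, single libraries left out gave 25 to 51 lower and 1 to 3 higher over dose, and 0 to 2 higher and 0 to 1 lower with engagement, and edgeR and quantile normalization each gave 2 higher over dose. With the replicate number as a block, 588 CD4 members were lower between engaged 0 and 10000 ng/ml, 55 higher and 24 lower with engagement, and in the hybridoma 1 was lower with engagement. At 1000 ng/ml alone the block gave 25 members higher and 4 lower with engagement, against 15 and 1 without it. In CD4 cells, deviations of same-numbered libraries correlated at -0.0185 to 0.208. The engaged dose difference near Dctn1 was 0.132 without engaged replicate 1 at 0 ng/ml and -0.37 without replicate 2. The member near Sipa1 lost its dose call with DESeq2 (adjusted p = 0.0728) and without either engaged library at 0 (limma adjusted p = 0.0631 and 0.067), and its engagement call with DESeq2 (adjusted p = 0.114). The other 1591 of 1596 values of named members kept their direction and side of the threshold. With 10 tags in the median member at the top dose, small remaining levels are not resolved.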

Other observations

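The level of 3 of the 617 clusters swung between replicates of the same group. The cluster at chr1:175810299-175810332 (minus strand, nearest Mnda) held 0.357 and 29.8 RPM in the unengaged libraries at 0 ng/ml, 0.405 and 20.2 RPM at 100, and 29.6 and 29.2 RPM in the engaged libraries at 10 ng/ml, against 0.696 and 0.154 RPM in the engaged libraries at 0. The cluster at chr18:66914913-66914915 (plus strand, nearest Pmaip1) was at 0 in engaged replicate 1 at 0 ng/ml and at 30.9 RPM in replicate 2, and at 12.4, 16.8 and 0 RPM in the unengaged libraries at 10000 ng/ml. Near Dnahc8, chr17:30763879-30763911 (plus strand) held 5.003 and 12.5 RPM at unengaged 0, 5.87 and 0.133 RPM at 100, and at most 1.38 RPM in every other library. These 3 met the ratio rule through few libraries and are among the 28 with no call between engaged 0 and 10000 ng/ml. They were picked after their values were seen.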
